A study of Homo sapiens with 4 samples.

Results

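MGMT, UNG, APEX1, OGG1, TDG, NTHL1, MSH6 and PMS2 are genes of direct reversal, base excision repair and mismatch repair. They were followed by symbol through 4 messenger RNA libraries, and all 8 were found among the 26364 gene symbols counted. The cells were NCI-H460, an established line of human lung cancer of the non-small cell kind, and each of 4 groups had 1 library. The groups were DZNep 4 Gy, DZNep 0 Gy, DMSO 4 Gy and DMSO 0 Gy. Gamma radiation of 4 or 0 Gy came first, followed by 48 h in 2 uM DZNep (3-deazaneplanocin A) or in its solvent DMSO. DZNep inhibits S-adenosylhomocysteine hydrolase and so slows methylation, including that by the histone methyltransferase EZH2. The 8 genes were chosen by their role and with their CPM values in these 4 libraries in view, so those values are a description and carry no test.

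Damaged or wrong bases are removed from DNA by several routes. MGMT takes an alkyl group off guanine onto itself in a single step and is used up by it. In base excision repair a glycosylase cuts the base from its sugar (UNG for uracil, TDG for thymine or uracil opposite guanine, OGG1 for oxidised guanine, NTHL1 for oxidised pyrimidines), and APEX1 then cuts the backbone at the empty site. In mismatch repair MSH6 helps to find mismatches, and PMS2 nicks the strand to be replaced. Silencing of MGMT by promoter methylation is known in several tumours and bears on the response to alkylating drugs, and UNG and MSH6 are known to be more abundant in dividing cells.

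The libraries held 116234177 counts (DZNep 4 Gy), 128255695 (DZNep 0 Gy), 112461380 (DMSO 4 Gy) and 136594350 (DMSO 0 Gy). Levels are given as CPM, which are counts scaled to the library total after a small correction by the TMM method, and a count of 3, the most that a count of 0 allows, is 0.0217 to 0.0267 CPM. With 1 library a group there is no replicate check. The intervals of ratios cover counting error only, and they are too narrow if some tags are mates of 1 fragment, since 55.9% to 58.1% of low counts were even. CDKN1A, a p53 target induced by DNA damage, stood at 1307 (DZNep 4 Gy), 251 (DZNep 0 Gy), 1296 (DMSO 4 Gy) and 201 (DMSO 0 Gy) CPM, so the dose labels matched this known response. Of 5 epithelial markers, KRT8, KRT18 and KRT19 were above 1 CPM and EPCAM and CDH1 below it, and the list summed to 1496 to 4296 CPM. The 4 blood markers summed to 5.11 to 8.53 CPM, of which 1 was above 1 CPM, the 3 endothelial markers to at most 0.703 CPM, and the 5 fibroblast markers, through COL1A1 and COL3A1, to 15.2 to 26.9 CPM.

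Start regions of the 3 genes whose levels differed most with a treatment, MGMT with DZNep and UNG and MSH6 with radiation, are shown because the results below turn on these genes. Each is the RefSeq window of 300 bases around a listed start site on GRCh38.p14, and all 8 genes matched that table, with 2 starts listed for UNG and 4 for MSH6. It is not the hg19 build of the counts. In MGMT the capitals mark the GC box, GGGCGG on either strand. In the others they mark E2F-type words, TTGGCGC or TTCCCGC on either strand.
MGMT, chr10:129466991-129467290, plus strand: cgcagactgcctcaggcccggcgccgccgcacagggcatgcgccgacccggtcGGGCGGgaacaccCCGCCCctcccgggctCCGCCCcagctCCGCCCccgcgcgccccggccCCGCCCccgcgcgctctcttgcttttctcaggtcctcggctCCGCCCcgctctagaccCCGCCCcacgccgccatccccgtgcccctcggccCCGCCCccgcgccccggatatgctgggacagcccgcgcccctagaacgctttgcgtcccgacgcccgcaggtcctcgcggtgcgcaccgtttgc
UNG, first start, chr12:109097347-109097646, plus strand: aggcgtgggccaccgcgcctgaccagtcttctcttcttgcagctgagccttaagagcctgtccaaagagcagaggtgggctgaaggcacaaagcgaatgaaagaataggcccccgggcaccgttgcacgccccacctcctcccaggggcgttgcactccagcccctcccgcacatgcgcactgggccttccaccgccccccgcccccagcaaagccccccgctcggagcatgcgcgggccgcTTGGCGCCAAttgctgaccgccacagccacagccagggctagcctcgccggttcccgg
UNG, second start, chr12:109097922-109098221, plus strand: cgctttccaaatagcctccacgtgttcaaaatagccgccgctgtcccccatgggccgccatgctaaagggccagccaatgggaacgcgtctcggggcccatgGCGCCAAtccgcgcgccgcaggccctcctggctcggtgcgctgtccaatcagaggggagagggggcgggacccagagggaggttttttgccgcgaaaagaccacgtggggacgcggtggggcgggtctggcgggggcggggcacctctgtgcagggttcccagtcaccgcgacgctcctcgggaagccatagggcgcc
MSH6, first start, chr2:47782895-47783194, plus strand: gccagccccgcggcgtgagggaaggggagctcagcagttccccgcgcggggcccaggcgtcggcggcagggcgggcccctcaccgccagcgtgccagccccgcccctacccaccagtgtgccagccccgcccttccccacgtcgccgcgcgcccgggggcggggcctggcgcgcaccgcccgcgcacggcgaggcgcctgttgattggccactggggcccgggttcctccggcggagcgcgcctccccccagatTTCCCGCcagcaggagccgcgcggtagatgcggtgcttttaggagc

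The MGMT window held 45 CpG pairs, more than 96.5% of the 35116 windows in the table, and 8 GC boxes. High CpG counts were not particular to MGMT. The NTHL1 window held 42 (more than 94.2% of windows) and the first MSH6 window 39 (more than 91.3%). All other windows of the 8 genes held 19 to 29. A GC box was present in 45.0% of all windows, and 9.06% held 4 or more. MGMT also had 1 TTCCCGC match, which lies across its first GC box and is not marked on its own. In UNG the first start had 2 TTGGCGC matches that overlap on opposite strands, 8 and 5 bases before the start site. The second UNG start had 1 match. TTGGCGC was present in 3.04% of all windows. The first MSH6 window had 1 TTCCCGC match, a word found in 6.55% of all windows, and 5 GC boxes. Of the other 3 MSH6 windows, which are not printed, 1 held a TTGGCGC match and the other two, which nearly coincide, held 1 TTCCCGC match each. Windows of OGG1 and TDG each held 1 TTGGCGC match, whereas APEX1, NTHL1 and PMS2 held neither E2F-type word. These are matches of letters, not measured binding sites.

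Of the 8 genes, MGMT differed most with the drug. It had 96 counts in DZNep 4 Gy and 172 in DZNep 0 Gy, against 1227 in DMSO 4 Gy and 1236 in DMSO 0 Gy. As levels these were 0.844 and 1.33 CPM in the DZNep libraries, against 10.9 and 8.93 CPM in the DMSO libraries. Both DZNep libraries lay far below both DMSO libraries, yet well above the level that a count of 0 allows. With 2 libraries a side, such a separation can arise by order alone. The share of all tested genes that separate so was not counted, here or for the genes below. MGMT was 12.7-fold lower with DZNep at 4 Gy (log2 ratio -3.67, 95% interval -4.01 to -3.39) and 6.66-fold lower at 0 Gy (-2.73, -2.99 to -2.52). Only 0.135% of the 13378 genes tested had a lower ratio at 4 Gy and 0.239% at 0 Gy. In these bulk samples, fewer cells with the transcript and less transcript per cell cannot be told apart.

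With radiation, MGMT moved in opposite directions under the drug and its solvent. Its log2 ratio of 4 to 0 Gy was -0.64 in DZNep (interval -1.03 to -0.29) and 0.29 in DMSO (0.18 to 0.41). Ratios of opposite sign with both intervals clear of 0 were found for 17.1% of tested genes, and the difference between the 2 ratios was not tested. An unnamed antisense transcript, AL157832.2, overlaps 8.04% of the exon length of MGMT on the other strand. The use of strand in counting is not given in the sources used here, so reads of an overlapping partner could not be set apart.

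**Figure D1:**
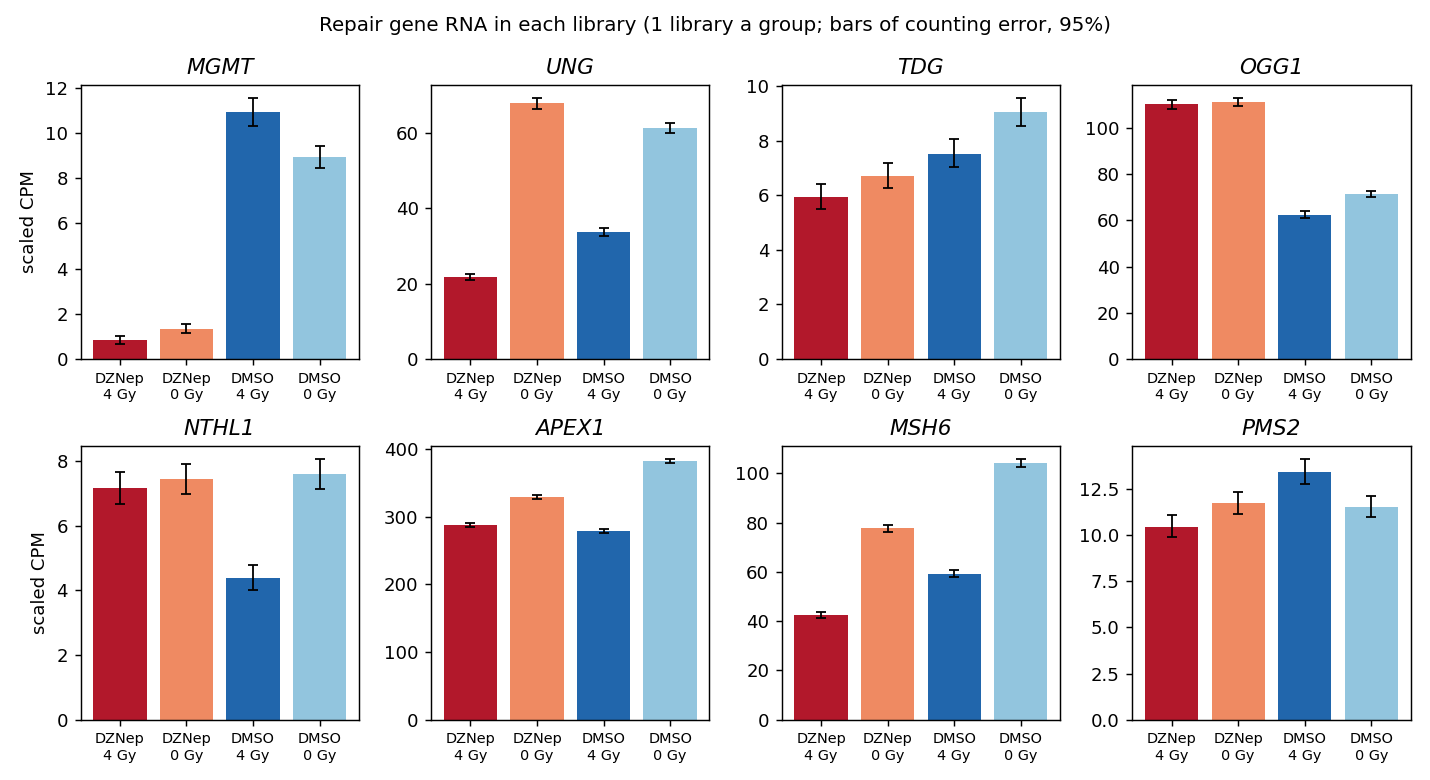
Scaled CPM of the 8 genes (vertical axes, linear from 0, a different scale for each gene) in the 4 libraries, 1 bar a library, with exact 95% bars of counting error. MGMT stands at 0.844 and 1.33 CPM in the DZNep libraries against 10.9 and 8.93 CPM in DMSO, and UNG at 21.8 CPM in DZNep 4 Gy against 67.8 CPM in DZNep 0 Gy.

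Among the same genes UNG differed most with radiation. It stood at 21.8 CPM in DZNep 4 Gy against 67.8 CPM in DZNep 0 Gy, and at 33.7 CPM in DMSO 4 Gy against 61.2 CPM in DMSO 0 Gy. Both irradiated libraries lay below both others. The uracil glycosylase gene was 3.12-fold lower at 4 Gy in DZNep (log2 ratio -1.64, interval -1.71 to -1.58) and 1.82-fold lower in DMSO (-0.86, -0.92 to -0.81). In DZNep 0.262% of tested genes had a lower ratio, and in DMSO 2.93%. The sign of the drug ratio differed with dose, at -0.63 at 4 Gy (-0.71 to -0.56) and 0.15 at 0 Gy (0.10 to 0.19). Drug ratios of opposite sign with both intervals clear of 0 were found for 12.9% of tested genes.

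OGG1, the glycosylase for oxidised guanine, was higher with the drug at both doses. It stood at 110.2 CPM in DZNep 4 Gy and 111 CPM in DZNep 0 Gy, against 62.4 CPM in DMSO 4 Gy and 71.4 CPM in DMSO 0 Gy. Both DZNep libraries lay above both DMSO libraries, an order whose share over all tested genes was not counted. OGG1 was 1.77-fold higher at 4 Gy (log2 ratio 0.82, interval 0.78 to 0.86) and 1.56-fold higher at 0 Gy (0.64, 0.60 to 0.68), and 6.75% and 11.9% of tested genes had a higher ratio. Its radiation ratio was -0.01 in DZNep (-0.05 to 0.02) and -0.19 in DMSO (-0.24 to -0.15). CAMK1, a kinase gene on the other strand, covers 25% of the OGG1 exon length, and TADA3 4.08%. CAMK1 itself stood at 7.96 (DZNep 4 Gy), 9.08 (DZNep 0 Gy), 7.74 (DMSO 4 Gy) and 8.37 (DMSO 0 Gy) CPM. TADA3 was of the same order as OGG1, at 68.0 (DZNep 4 Gy), 65.2 (DZNep 0 Gy), 87.5 (DMSO 4 Gy) and 84.4 (DMSO 0 Gy) CPM. The part of reads from these partners in the OGG1 values was not tested.

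NTHL1 differed with the drug at 4 Gy but hardly at 0 Gy. This glycosylase for oxidised pyrimidines had 7.16 CPM in DZNep 4 Gy against 4.38 CPM in DMSO 4 Gy, and 7.43 CPM in DZNep 0 Gy against 7.60 CPM in DMSO 0 Gy. One library, DMSO 4 Gy, therefore stood below the other 3, which lay close together. The log2 ratio with DZNep was 0.71 at 4 Gy (interval 0.55 to 0.87) and -0.03 at 0 Gy (-0.16 to 0.10). With radiation it was -0.05 in DZNep (-0.19 to 0.08) and -0.79 in DMSO (-0.95 to -0.64). TSC2, a growth control gene, overlaps 16.5% of the NTHL1 exon length on the other strand and was more abundant, at 61.4 to 104.5 CPM.

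TDG, the glycosylase for thymine or uracil opposite guanine, was scarce. It had 677 counts (5.95 CPM) in DZNep 4 Gy and 869 (6.71 CPM) in DZNep 0 Gy, against 845 (7.52 CPM) in DMSO 4 Gy and 1252 (9.04 CPM) in DMSO 0 Gy. Both DZNep libraries lay below both DMSO libraries, and within each drug the irradiated library was the lower one. The log2 ratio with DZNep was -0.34 at 4 Gy (interval -0.49 to -0.19) and -0.43 at 0 Gy (-0.56 to -0.30). With radiation it was -0.17 in DZNep (-0.32 to -0.03) and -0.27 in DMSO (-0.39 to -0.14).

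APEX1, the main endonuclease for sites without a base, was by far the most abundant of the 8. It stood at 288 CPM in DZNep 4 Gy and 329.5 CPM in DZNep 0 Gy, against 279 CPM in DMSO 4 Gy and 382 CPM in DMSO 0 Gy. The irradiated libraries lay below the others. Its radiation ratio was -0.19 in DZNep (interval -0.21 to -0.17) and -0.45 in DMSO (-0.47 to -0.43). Its drug ratio was 0.04 at 4 Gy (0.02 to 0.07) and -0.21 at 0 Gy (-0.23 to -0.20). At this depth such intervals exclude 0 for very small differences, and they say nothing of how cultures vary.

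MSH6, the mismatch recognition subunit, was lower with both treatments. It stood at 42.6 CPM in DZNep 4 Gy and 77.7 CPM in DZNep 0 Gy, against 59.3 CPM in DMSO 4 Gy and 104 CPM in DMSO 0 Gy. The irradiated libraries lay below the others, and at each dose the DZNep library lay below the DMSO library. MSH6 was 1.82-fold lower at 4 Gy in DZNep (log2 ratio -0.87, interval -0.92 to -0.82) and 1.76-fold lower in DMSO (-0.81, -0.85 to -0.77). Its drug ratio was -0.48 at 4 Gy (-0.53 to -0.42) and -0.42 at 0 Gy (-0.46 to -0.39). FBXO11, a ubiquitin ligase subunit gene that overlaps 16.2% of the MSH6 exon length on the other strand, stood at 36.0 (DZNep 4 Gy), 37.9 (DZNep 0 Gy), 47.6 (DMSO 4 Gy) and 40.2 (DMSO 0 Gy) CPM.

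PMS2, the nicking enzyme of mismatch repair, stood at 10.5 CPM in DZNep 4 Gy and 11.7 CPM in DZNep 0 Gy, against 13.4 CPM in DMSO 4 Gy and 11.5 CPM in DMSO 0 Gy. The DMSO 4 Gy library was the highest and the drug groups overlapped. Its radiation ratio was -0.16 in DZNep (interval -0.28 to -0.05) and 0.22 in DMSO (0.12 to 0.33), and its drug ratio was -0.36 at 4 Gy (-0.47 to -0.25) and 0.03 at 0 Gy (-0.08 to 0.13). PMS2 has near-identical pseudogenes, so its counts are uncertain. The 8 pseudogene symbols in the files summed to 10256 (DZNep 4 Gy), 10654 (DZNep 0 Gy), 12759 (DMSO 4 Gy) and 15661 (DMSO 0 Gy) counts. PMS2 made up 9.24% to 12.5% of the sum of its own and these counts. Summed with them, the radiation ratio was 0.10 in DZNep and 0.03 in DMSO, and the drug ratio was -0.34 at 4 Gy and -0.41 at 0 Gy. The opposite signs of the PMS2 symbol alone were therefore absent from the sum.

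**Figure D2:**
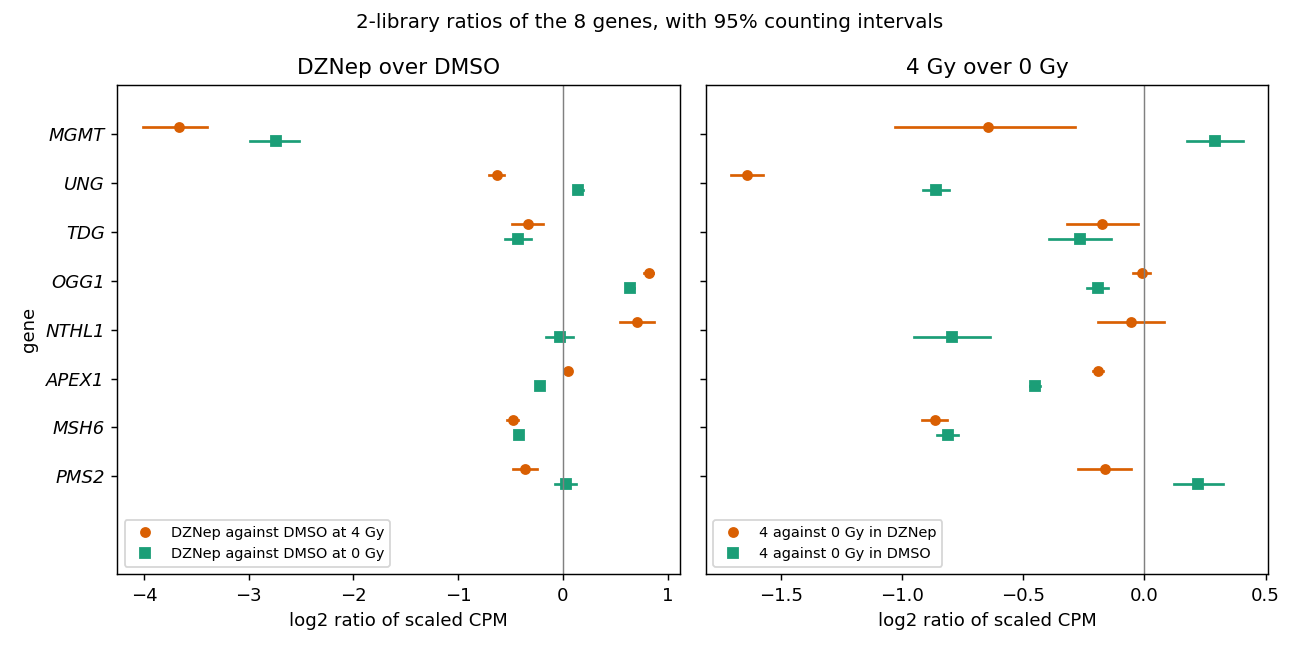
Log2 ratios of scaled CPM between 2 libraries (horizontal axes) for the 8 genes, with 95% intervals of counting error as lines; circles are the comparison at 4 Gy (left) or within DZNep (right), squares that at 0 Gy or within DMSO. MGMT lies at -3.67 and -2.73 for DZNep over DMSO, and UNG at -1.64 and -0.86 for 4 Gy over 0 Gy.

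An additive model of drug and dose, fitted over the 4 libraries and all 13378 tested genes with edgeR's quasi-likelihood test, put the same values on 1 scale per treatment. With DZNep the log2 change was -3.21 (SE 0.29) for MGMT and 0.73 (SE 0.15) for OGG1. It was -0.24 (SE 0.19) for UNG, -0.45 (SE 0.15) for MSH6 and between -0.38 and 0.33 for the other 4. After radiation it was -1.25 (SE 0.20) for UNG and -0.84 (SE 0.15) for MSH6, against -0.42 (SE 0.24) for NTHL1, -0.32 (SE 0.14) for APEX1 and -0.14 (SE 0.27) for MGMT. TDG, OGG1 and PMS2 lay between -0.22 and 0.03. At an adjusted p of 0.05, OGG1 was 1 of 8 genes past the threshold upward with DZNep (10.8% of all tested genes) and MGMT 1 of 8 downward (12.3%). After radiation 0 of 8 were past it upward (2.17%) and 2 of 8, UNG and MSH6, downward (0.897%). Between 2 libraries, MGMT was 1 of 8 at least 2-fold lower with DZNep at 4 Gy (6.39% of tested genes) and at 0 Gy (5.89%), and 0 of 8 were at least 2-fold higher (4.7% at 4 Gy and 5.48% at 0 Gy). With radiation in DZNep, UNG was 1 of 8 at least 2-fold lower (1.1%) and 0 of 8 were higher (1.82%), and in DMSO 0 of 8 were lower (1.55%) or higher (3.6%). These counts follow from how the genes were chosen, so passing a threshold is a description and no test of the 8. The fit has 1 residual degree of freedom, which is the departure of the 4 libraries from an additive pattern. A joint effect of drug and dose is therefore counted as error. The errors do not measure how replicate libraries or cultures vary, since each group has 1 library. No label says that the libraries came from separate cultures.

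Per kilobase of exon, which allows genes to be set side by side, APEX1 was highest in every library at 148 to 203 CPM per kb. UNG (8.48 to 26.4) and OGG1 (7.15 to 12.7) followed, then MSH6 (3.87 to 9.48), and the ranges of neighbours in this order overlapped. UNG was above OGG1 in 3 libraries, but in DZNep 4 Gy OGG1 stood at 12.6 and UNG at 8.48 CPM per kb. In DMSO 0 Gy MSH6 stood at 9.48 and OGG1 at 8.18 CPM per kb. PMS2 (2.66 to 3.41), NTHL1 (1.80 to 3.13) and TDG (1.21 to 1.84) lay lower, again with overlapping neighbours. NTHL1 was above PMS2 in every library but DMSO 4 Gy. MGMT stood at 0.237 and 0.374 CPM per kb in DZNep 4 Gy and DZNep 0 Gy, the lowest of the 8 there, against 3.07 and 2.51 CPM per kb in DMSO 4 Gy and DMSO 0 Gy, where it lay above TDG. Exon lengths came from GENCODE by symbol and join all isoforms, so a gene with a long joined length is placed low. The longest were MSH6 at 10.99 kb and OGG1 at 8.73 kb. In CPM, MSH6 stood above UNG in every library.

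The make-up of the glycosylase RNA differed between the libraries. Among 11 glycosylase genes, UNG made up 9.66% of the summed level per kb in DZNep 4 Gy and 26.0% in DZNep 0 Gy, against 13.1% in DMSO 4 Gy and 20.3% in DMSO 0 Gy. OGG1 made up 14.4% in DZNep 4 Gy and 12.5% in DZNep 0 Gy, against 7.15% in DMSO 4 Gy and 6.95% in DMSO 0 Gy. MPG, the glycosylase for alkylated purines, held the largest share in every library, at 28.1% to 48.6%. This order depends on the exon length divided by, which was 1.66 kb for MPG and 8.73 kb for OGG1. In CPM, OGG1 was above MPG in DZNep 4 Gy (110.2 against 53.1) and DZNep 0 Gy (111 against 47.4). OGG1 was below MPG in DMSO 4 Gy (62.4 against 80.7), and the genes were nearly level in DMSO 0 Gy (71.4 against 71.5). The shares of TDG and NTHL1 stayed at or below 3.36%.

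Other genes of the same pathways were taken as a list of 42, without the 8, of which 41 were tested and APLF was too low. With DZNep 2 rose, 3 fell and 36 did not pass, against 10.8% and 12.3% of all tested genes that rose and fell, and the median log2 change was -0.11 against -0.02 for all tested genes. ALKBH2, which reverses alkylation damage directly as MGMT does for another lesion, rose by 1.02 (SE 0.19, adjusted p = 0.00233). It stood at 35.6 and 34.6 CPM in DZNep 4 Gy and DZNep 0 Gy, against 14.1 and 21.1 CPM in DMSO 4 Gy and DMSO 0 Gy. The exonuclease gene EXO1 rose by 0.75 (SE 0.15, adjusted p = 0.0034). Among the falls, MPG changed by -0.60 (SE 0.15, adjusted p = 0.0148). XRCC1, a scaffold of base excision repair, changed by -0.56 (SE 0.18, adjusted p = 0.0425), and its adjusted p ranged from 0.011 to 0.267 over the alternatives.

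After radiation, 2 of the 41 rose, 2 fell and 37 did not pass, against 2.17% and 0.897% of all tested genes that rose and fell, with a median log2 change of -0.27 against 0.01 for all tested genes. The polymerase gene POLL rose by 0.70 (SE 0.16) and POLD4, a subunit of polymerase delta, by 0.71 (SE 0.16), both at an adjusted p of 0.0359. EXO1 changed by -0.91 (SE 0.15, adjusted p = 0.00749) and FEN1, a flap endonuclease, by -0.89 (SE 0.19, adjusted p = 0.0305). All 6 mismatch repair genes of the list, which leaves out MSH6 and PMS2, were below 0 in both radiation comparisons, but of these EXO1 alone passed the test. MSH6 was below 0 in both as well, whereas PMS2 was above 0 in DMSO. Of the 13378 tested genes, 6334 were below 0 in DZNep and 6729 in DMSO. With no filter on low counts POLL, POLD4 and FEN1 did not pass. With only the tested treatment in the model, 0 of the 41 passed for either treatment, while 3 (DZNep) and 5 (radiation) had an unadjusted p under 0.05 in edgeR.

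S phase genes were set beside UNG and MSH6. Of 24 tested, 0 rose, 10 fell and 14 did not pass after radiation, against 2.17% and 0.897% of all tested genes that rose and fell, with a median log2 change of -0.67 against 0.01 for all tested genes. The count was 5 with no filter on low counts and 0 without the drug in the model. Among the falls were the cyclin gene CCNE2 (-1.61, SE 0.36), the ribonucleotide reductase gene RRM2 (-1.21, SE 0.16), GINS2 (-1.05, SE 0.19), MCM6 (-1.03, SE 0.16) and MCM4 (-1.01, SE 0.15). The median ratio of the list was -0.46 in DZNep and -0.86 in DMSO, whereas the UNG ratio was -1.64 in DZNep and -0.86 in DMSO. With DZNep, 0 of the 24 rose and 2 fell, against 10.8% and 12.3% of all tested genes. CCNE2 was among the falls (-1.18, SE 0.35, adjusted p = 0.0303), but its adjusted p was 0.0914 with DESeq2 and ranged from 0.025 to 0.410 over the alternatives. The count with DZNep was 1 with DESeq2 or with no filter, and 0 without dose in the model. The part of S phase cells in the UNG and MSH6 values was not tested.

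**Figure D3:**
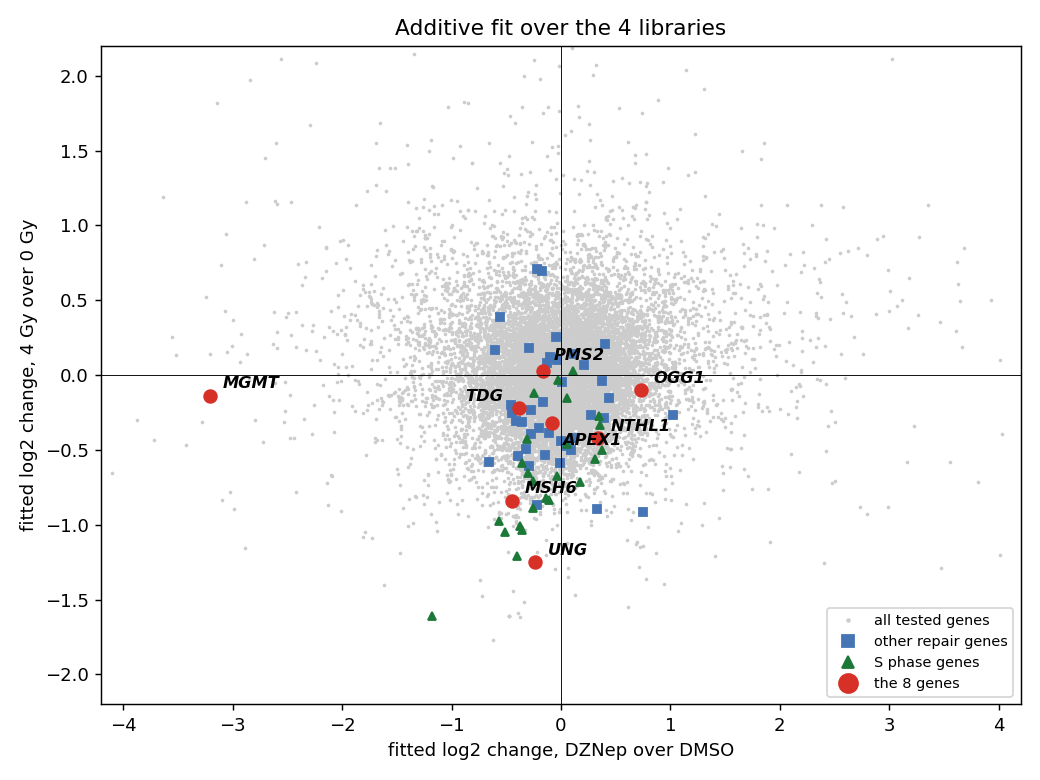
Fitted log2 change with DZNep over DMSO (horizontal axis) and at 4 Gy over 0 Gy (vertical axis) from the additive fit; grey points are tested genes, of which 39 lie outside the axes, squares other repair genes, triangles S phase genes and red circles the 8 genes. MGMT stands apart to the left at -3.21, and UNG (-1.25) and MSH6 (-0.84) lie low among the S phase genes.

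Genes beside these genes on the other strand were also followed. ALKBH2, which starts 4125 bases from UNG, rose with DZNep (above), whereas the fitted change of UNG was -0.24 (SE 0.19). OSGEP, 414 bases from APEX1, stood at 7.38 (DZNep 4 Gy), 7.81 (DZNep 0 Gy), 5.56 (DMSO 4 Gy) and 7.98 (DMSO 0 Gy) CPM, lowest in DMSO 4 Gy as was APEX1. TSC2, 151 bases from NTHL1, was lowest in DMSO 0 Gy at 61.4 CPM, whereas NTHL1 was lowest in DMSO 4 Gy at 4.38 CPM. AIMP2, 166 bases from PMS2, stood at 48.0 (DZNep 4 Gy), 36.2 (DZNep 0 Gy), 44.4 (DMSO 4 Gy) and 45.4 (DMSO 0 Gy) CPM. GLT8D2, beside TDG, was too low to test, at 0.0791 to 0.301 CPM.

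**Figure D4:**
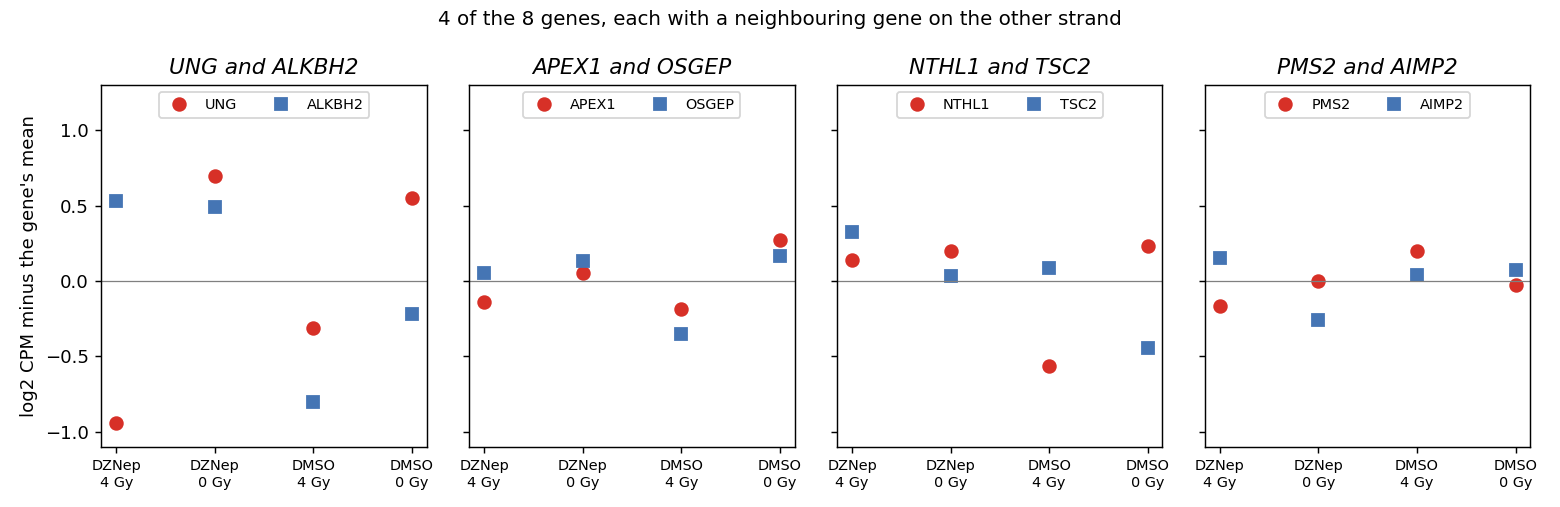
Log2 CPM minus the mean of each gene over the 4 libraries (vertical axis) for UNG, APEX1, NTHL1 and PMS2 (circles) and a neighbouring gene on the other strand (squares), 1 point a library. ALKBH2 is high in both DZNep libraries, whereas UNG is low in both 4 Gy libraries.

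The genes with the profile most like MGMT over the 4 libraries were found by the distance between log2 CPM values centred on each gene's mean, among 10299 genes. They were ZSCAN31 (distance 0.294), PDE9A (0.396), GOLGA8O (0.443), GOLGA8N (0.455) and LMF1 (0.515). ZSCAN31, a zinc finger gene, stood at 2.67 and 3.45 CPM in DZNep 4 Gy and DZNep 0 Gy, against 34.6 and 22.9 CPM in DMSO 4 Gy and DMSO 0 Gy. The GOLGA8 genes are near-identical copies, so their counts are uncertain. Among 8409 genes, those most like UNG were RAB27A (0.343), WDR76 (0.364), C3orf14 (0.365), CRLS1 (0.418) and WDR75 (0.462). WDR76 stood at 15.5 CPM in DZNep 4 Gy against 40.3 CPM in DZNep 0 Gy, and at 17.1 CPM in DMSO 4 Gy against 39.7 CPM in DMSO 0 Gy. With 4 libraries, likeness of profile is a description.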

How the data were processed

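Messenger RNA of NCI-H460 cells was measured in 4 libraries, made with the Lexogen SENSE mRNA kit from Trizol RNA, per the labels' protocols. Per library, the authors deposited 1 table of raw counts by gene symbol. TopHat, edgeR and hg19 are named in the submitters' processing notes. Versions, counting program, annotation and strand use: not given in the sources used here. Groups came from the labels.

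Counts were scaled by TMM after a filter of 1 CPM in at least 2 libraries, which left 13378 of 26364 symbols, and fitted with edgeR 4.0.16 (R 4.3.3) in an additive quasi-likelihood model of drug and dose, with 1 residual degree of freedom, Benjamini-Hochberg adjustment over all tested genes and a threshold of 0.05. Ratios between 2 libraries used a prior count of 2, with exact conditional binomial 95% intervals without it. The test was run on simulated data first. The 8 genes, the lists and the tests were chosen with earlier results of these data known. Named were all 8 genes, up to 5 genes past the threshold per list and treatment with the largest effect, listed neighbours, and the 5 genes closest to MGMT (at 5 CPM or more in the highest library) and to UNG (at 10 CPM or more). Some genes that this rule names are left out of the text. Alternatives were scaling by RLE or plain library size, a filter at 10 CPM or none, DESeq2 1.42.0, a model of 1 treatment, other prior counts, halved counts, PMS2 summed with pseudogenes and, chosen after seeing the data, TMM before the filter. Promoters came from RefSeq on GRCh38.p14 and exon lengths from GENCODE.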

Additional observations from a re-analysis of the deposited data

Results flagged for a closer look

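Of the 8 genes, 2 (MGMT and PMS2) had radiation ratios of opposite sign in DZNep and DMSO. Another 2 (UNG and APEX1) had drug ratios of opposite sign at 4 and 0 Gy. In each case both counting intervals were clear of 0. The drug ratios of NTHL1 and PMS2 also had opposite signs, but their intervals at 0 Gy included 0. With 1 library a group none of these differences was tested. The radiation ratio of MGMT was -0.64 in DZNep and 0.29 in DMSO, a difference of -0.94 on the log2 scale. That of PMS2 was -0.16 in DZNep and 0.22 in DMSO, a difference of -0.39, but summed with its pseudogene symbols it was 0.10 in DZNep and 0.03 in DMSO, with no opposite signs. Such opposite radiation ratios, with both counting intervals clear of 0, were seen in 17.1% of tested genes. The drug ratio of UNG was -0.63 at 4 Gy and 0.15 at 0 Gy, a difference of -0.78, and that of APEX1 was 0.04 at 4 Gy and -0.21 at 0 Gy, a difference of 0.26. The APEX1 case depends on scaling. With plain library size its ratio at 4 Gy was 0.015, nearer 0 than its counting interval of 0.022 to 0.067. That scaling moves every ratio of this comparison, and both ends of its interval, by -0.030. The move is larger than the distance of the lower end from 0, so the APEX1 interval at 4 Gy then includes 0. Under plain library size APEX1 is thus not a case with both intervals clear of 0. Opposite drug ratios were seen in 12.9% of tested genes.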

How the results depend on the processing

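No paired analysis was possible because the labels give no replicate numbers and each group is 1 library. Of the 41 other repair genes, 5 passed with DZNep and 4 after radiation. With only the tested treatment in the model, 0 passed for DZNep and 0 for radiation. For radiation 1 passed with no filter, 10 with a 10 CPM filter (of 36 tested), and 2 with TMM before the filter, an alternative chosen after seeing the data; the cause was not tested. Over all tested genes, radiation calls were 290 rises and 120 falls (70.7% rises), against 351 and 266 (56.9%) with plain library size, 590 and 441 (57.2%) with the 10 CPM filter, 407 and 174 with RLE scaling, 447 and 214 with DESeq2, 134 and 65 with no filter, 182 and 71 with TMM before the filter, and 0 and 0 without the drug. DZNep calls were 1446 rises and 1640 falls, against 355 and 366 without dose. For the 8 genes, chosen with their values in view, passing is a description and no test. In these models of 1 treatment, OGG1 (DZNep) and UNG and MSH6 (radiation) no longer passed. MSH6 passed with DZNep under plain library size and the 10 CPM filter, which left MGMT untested. Scaling, prior counts and halving each moved the ratios of the 8 genes by at most 0.04, and 8 ratios, all of APEX1, OGG1 or PMS2, left their counting interval under some alternative. PMS2 summed with its pseudogenes reversed in DZNep, at 0.10 for 4 over 0 Gy against -0.16 for PMS2 alone. The same sum gave 0.03 against 0.22 in DMSO, and -0.41 against 0.03 for DZNep over DMSO at 0 Gy, the largest shift (0.43).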

Other observations

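Ratios of counts between repair genes in 1 library do not depend on scaling between libraries. UNG had 0.0755 counts for each APEX1 count in DZNep 4 Gy and 0.206 in DZNep 0 Gy, against 0.121 in DMSO 4 Gy and 0.1601 in DMSO 0 Gy. OGG1 had 0.382 for each APEX1 count in DZNep 4 Gy and 0.337 in DZNep 0 Gy, against 0.223 in DMSO 4 Gy and 0.187 in DMSO 0 Gy. UNG had 0.511 counts for each MSH6 count in DZNep 4 Gy, against 0.568 to 0.873 in the other 3 libraries.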
